A study of Mus musculus with 221 samples.

Results

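The cells described here came from 2 neighbouring clusters of the aorta-gonad-mesonephros region (AGM) of the mouse embryo: c4, labelled as late hemogenic endothelium (HE) of the AGM, and c5, the AGM progenitor cluster whose label is HE-Hb. They were taken by the cluster number in their labels and by a library size of at least 17595 estimated counts, which kept 20 of 22 cells of c4 and all 21 of c5. These 41 cells are part of 221 long-read libraries in the series, of which 208 reached that limit. Both clusters came from the same kind of embryo, which carried the Gfi1-GFP and Runx1b-RFP reporters of C57BL/6JOlaHsd mice and were obtained from Hsd:ICR (CD-1) females, with no treatment. AGM HE cells were sorted as RUNX1+, KIT-, CDH5+, CD41- and CD45-, with or without GFI1. The sort that gave the cells of c5 is not given in the sources used here, and neither is the embryo or the stage of a single cell, so that cluster, stage and sort gate cannot be told apart. The clusters were drawn by the authors on short reads of the same cDNA. Gene levels therefore had to differ between them to some extent, and the values given here describe that difference without a test. The cluster c3, labelled as early HE of the AGM, is given beside them where it shows on which side of c4 a value lies, over 29 cells.

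Hemogenic endothelium is the part of the embryonic vessel wall that gives rise to blood. In the endothelial-to-hematopoietic transition (EHT) flat endothelial cells lose their junctions and their anchorage to the basement membrane, round up, and start a blood programme under transcription factors such as RUNX1, GFI1 and GFI1B. In the dorsal aorta, which lies in the AGM, the cells then form clusters on the vessel wall that hold the first hematopoietic progenitors and stem cells. The comparison of c4 with c5 asks what separates the last endothelial state from the first progenitor state of that path, in gene levels and in the isoforms that long reads can tell apart.

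Totals per cell ran from 34628 to 125339 estimated counts in c4 (median 65347) and from 47151 to 121985 in c5 (median 59726), so that depth differed little between the clusters. A median of 5456 genes was found per cell in c4 and 5374 in c5. Mitochondrial genes took 3.37% of the counts of c4 and 3.56% of those of c5, and ribosomal protein genes 12.3% and 13.8%. The cells were sequenced in 3 nanopore runs, with 7, 6 and 7 cells of c4 and 7 cells of c5 in each. In all, 18 cells of c4 and all 21 of c5 came from 1 shared cDNA plate, but only 8 of the 29 cells of c3. Since no embryo is named, each cluster counts as 1 sample, and neither tests nor standard errors are given. Each level is the summed count of a gene in counts per 1000000 counts of the cluster (CPM), with a 95% exact Poisson interval that covers counting error only. The reads carry no molecular identifiers, so these intervals leave out the copying of cDNA. A CPM is a share, and fewer transcripts of a gene cannot be told apart from more transcripts of other genes.

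A gene was taken as measured at 50 CPM or more in c4 or c5, which 3817 genes reached, and was called when its level differed at least 2-fold over all cells and within each of the 3 runs. A gene under 50 CPM in 1 cluster thus entered only through the other, which pushes the medians of gene lists away from 0. In all, 45 genes were called higher in c5, or 1.18% of those measured, and 107 were called lower, or 2.80%. The median log2 ratio of c5 over c4 was -0.01 over all measured genes, with 5% of them below -1.38 and 5% above 0.94. With size factors by the median ratio, which moved the median of all genes by 0.12, the calls were 56 higher and 84 lower. Of the 45 genes called higher, 14 are predicted or unnamed genes, against 2 of the 107 called lower. The runs set the precision: the SD of a gene's log2 ratio over the 3 runs had a median of 0.54.

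**Figure D1:**
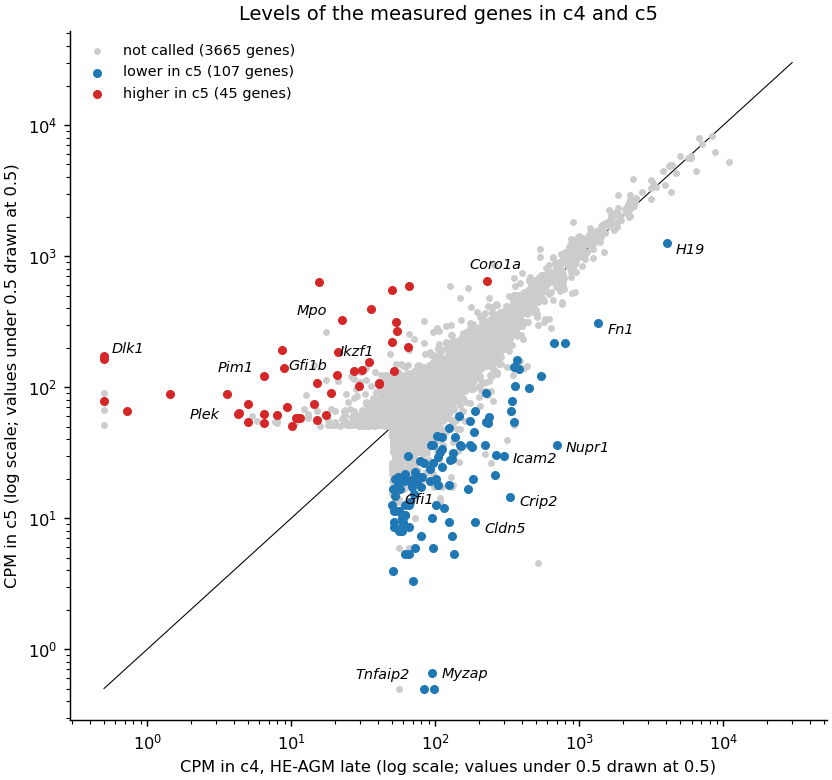
Each point is 1 of the 3817 measured genes, with its summed CPM in c4 on the x axis and in c5 on the y axis, both on log scales, and with the line of equal level. The 107 genes called lower in c5 (blue) include highly expressed genes such as H19 and Fn1, and the 45 called higher (red) mostly lie at low levels in c4.

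The measured endothelial identity genes all lay lower in c5. Of 30 listed genes 16 were measured, all 16 had a log2 ratio below 0, and 11 were called lower, with a median of -1.89 against -0.01 for all measured genes. Members under 50 CPM in c5 were measured only through c4, which lowers the median of the list. Cdh5, the VE-cadherin of endothelial junctions and one of the sort markers of HE, was at 355 CPM (interval 324 to 387) in c4 and at 101 (85.9 to 119) in c5. Every one of the 20 c4 cells held at least 1 Cdh5 count, with a lowest, median and highest cell of 76.9, 325 and 718 CPM, while 15 of 21 c5 cells did, with 0, 54.1 and 427 CPM. The ranges of the clusters overlapped, and 11 c5 cells lay below the lowest c4 cell.

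Other junction and surface genes went further down. Cldn5, the claudin that seals endothelial tight junctions, had a c4 level of 189 CPM and a c5 level of 9.27, 20.4-fold lower (11.9 to 37.8), and was found in 16 of 20 and 6 of 21 cells. Icam2, an adhesion molecule of endothelial cells, was in all 20 c4 cells and in 8 of 21 c5 cells, at 297 and 29.8 CPM. The diaphragm protein gene Plvap was at 262 and 30.5 CPM, and the von Willebrand factor gene Vwf was at 336 and 65.6 CPM. Pecam1, Esam, Ecscr, Ramp2, Tek and Sox18 completed the 11 calls. The receptors Tie1, Calcrl and Eng, the co-receptor Cd93 and the secreted Egfl7 were measured and not called, since their differences were below 2-fold in at least 1 run. For Tie1 the log2 ratios were -0.79, -1.61 and -0.97 in runs 1, 2 and 3.

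Summed over the 30 genes, the endothelial list held 7838 CPM in c3, 3961 in c4 and 1122 in c5. In single cells of c4 the sum ran from 1946 to 5877 CPM (median 3859) and in those of c5 from 289 to 2559 (median 871), and 19 of 21 c5 cells lay below the lowest c4 cell. By this sum c4 stood between c3 and c5, and it did so also on the shared plate alone, a comparison chosen after the data were seen, with 6599 CPM in 8 cells of c3, 3926 in 18 of c4 and 1122 in 21 of c5. None of the c5 cells reached 0, and the highest of them held more endothelial RNA than the lowest c4 cell.

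**Figure D2:**
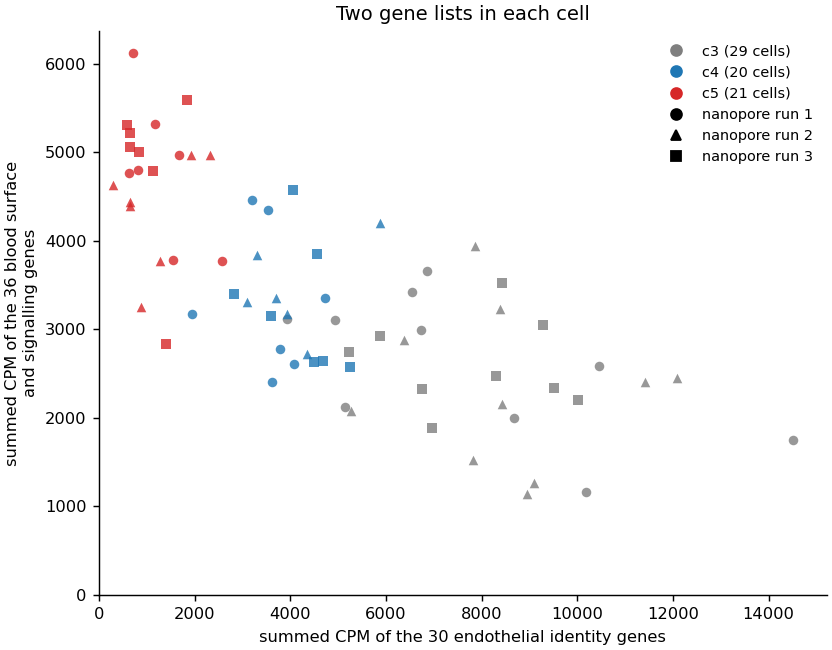
Each point is a cell, with the summed CPM of the 30 endothelial identity genes on the x axis and of the 36 blood surface and signalling genes on the y axis, coloured by cluster and shaped by nanopore run. From c3 over c4 to c5 the endothelial sum drops, from 7838 to 3961 to 1122 CPM over all cells, while the blood sum goes from 2534 to 3283 to 4739 CPM.

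The genes of the matrix under the endothelium showed a difference of the same kind. Of 20 listed genes 8 were measured, all 8 with a log2 ratio below 0, and 7 were called lower, with a median of -2.23. Members under 50 CPM in c5 were measured only through c4, which lowers that median. Summed over all 20 genes, the list held 2977 CPM in c4 and 767 in c5. Fibronectin (Fn1) was at 1348 CPM in c4 and 309 in c5, 4.36-fold lower (3.93 to 4.83). Cells of c4 ran from 636 to 2231 CPM of Fn1 (median 1295) and those of c5 from 17.6 to 1224 (median 117), and 17 of the c5 cells were below every c4 cell. The collagen gene Col18a1 went from 669 to 215 CPM, the perlecan gene Hspg2 from 124 to 17.9 and the collagen IV gene Col4a1 from 105 to 17.9. Sparc, Timp3 and the matrix metalloproteinase gene Mmp2 were also called lower. Mmp2, which cuts basement membrane collagen, was at 134 CPM in c4 and 5.30 in c5, with counts in 15 of 20 and 2 of 21 cells. Only Col4a2 among the measured members was not called, at 110.03 and 46.4 CPM.

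Adhesion and TGF-beta family genes were lower by a median log2 ratio of -1.77 over 6 measured of 24 listed, with 2 calls. Here too the filter lowers the median, and all 24 genes summed to 1769 CPM in c4 and 731 in c5. The genes called were Tjp1, the tight junction scaffold ZO-1, at 69.0 and 17.2 CPM, and Id3, an inhibitor of basic helix-loop-helix factors and a target of BMP signalling, at 260.3 and 21.2 CPM. The related Id1 was at 143 and 32.5 CPM and missed the call because run 2 gave a log2 ratio of -0.25. Beta-catenin (Ctnnb1), which links cadherins to actin, was at 639 and 284 CPM and was not called. Arterial and Notch pathway genes were already low in c4. Their 25 genes summed to 3073 CPM in c3 (2136 on the shared plate), 622 in c4 (655) and 210.0 in c5, and 4 of them reached the measured level. Hey1, a Notch target, was the one called, at 51.1 and 3.97 CPM with counts in 9 and 2 cells, and it lost the call when the highest cell of each cluster was left out. The gap junction gene Gja4, the ephrin gene Efnb2 and Notch1 itself stayed under 50 CPM in both clusters, with 43.9 and 4.64, 41.0 and 1.32, and 29.5 and 1.32 CPM.

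Of the actin cytoskeleton list, 26 of 30 genes were measured and 4 were called lower. They were the intermediate filament gene Vim, counted in this list as a part of the cytoskeleton, at 799.7 and 219 CPM, Tpm4 at 226 and 90.7, the membrane-actin linker gene Msn at 367 and 162, and the myosin light chain gene Myl9 at 168 and 16.5. Actin itself (Actb) was almost equal, at 8376 and 8206 CPM. The median of the list was -0.35, with 22 of 26 log2 ratios below 0.

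Blood surface and signalling genes differed the other way. Of 36 listed, 16 were measured and 4 were called higher, with a median log2 ratio of 0.85, and 11 of the 16 were above 0. Among them Coro1a, the actin regulator coronin of white blood cells, was at 229 and 639.9 CPM, with a median cell of 250.1 in c4 and 644 in c5. The adaptor gene Sla and pleckstrin (Plek), both of blood cells, were at 7.91 and 60.9 CPM and at 4.31 and 62.9 CPM. The integrin-associated Cd47 was not called, at 178 and 411 CPM, because its log2 ratio was 0.74 in run 3, although 16 of 21 c5 cells were above every c4 cell.

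Several genes often used to mark blood cells did not separate the clusters. Kit, the receptor of stem cell factor, was at 240.2 CPM (215 to 267) in c4 and 191 (170.0 to 215) in c5, with counts in 20 of 20 and 20 of 21 cells, although HE cells were sorted as KIT-. Cd34 was at 508 and 588 CPM, Adgrg1 at 653 and 646 and Itga2b, which encodes CD41, at 41.0 and 27.8. Ptprc, which encodes CD45, had too few counts to compare. It was at 0.719 CPM in c4, from 1 count, and at 11.9 in c5, from 18 counts in 6 of 21 cells. By these levels c5 held early blood genes and few Ptprc counts, and a cell without a count may still express Ptprc. Summed over the list the cells of c4 ran from 2407 to 4568 CPM (median 3244) and those of c5 from 2828 to 6118 (median 4798), with 14 c5 cells above every c4 cell.

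Genes of the lymphoid and myeloid fates were the group with the highest ratios among those with several members. Of 24 listed 6 were measured, and 5 of these were called higher with a median over the 6 of 2.27. All 5 lay under 50 CPM in c4 and so were measured only through their level in c5, which raises that median. Summed over all 24 genes, the list held 407.8 CPM in c4 and 979.7 in c5. Mpo, the peroxidase of neutrophil granules, was at 22.3 CPM (15.1 to 31.6) in c4 and 323 (295 to 353) in c5, with counts in 6 of 20 and 18 of 21 cells. In c4 most of its counts came from run 2, at 83.4 CPM against 7.41 and 1.51 in the other two runs. Prtn3, a second granule enzyme, was at 30.9 and 135 CPM and in 6 and 20 cells. The co-stimulatory receptor gene Cd27 was at 10.8 and 57.6 CPM, and the immune receptor adaptor genes Tyrobp and Fcer1g were at 9.35 and 70.2 CPM and at 34.5 and 156 CPM. The sixth measured member, Cebpb, was lower without a call, at 247 and 140.4 CPM. The granule genes Elane and Ctsg and the lymphoid genes Il7r, Rag1, Rag2 and Dntt were at 0 in both clusters, and the cytokine receptor gene Flt3, which was below the measured level, was at 0 in c4 and at 30.5 CPM in 9 cells of c5.

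**Figure D3:**
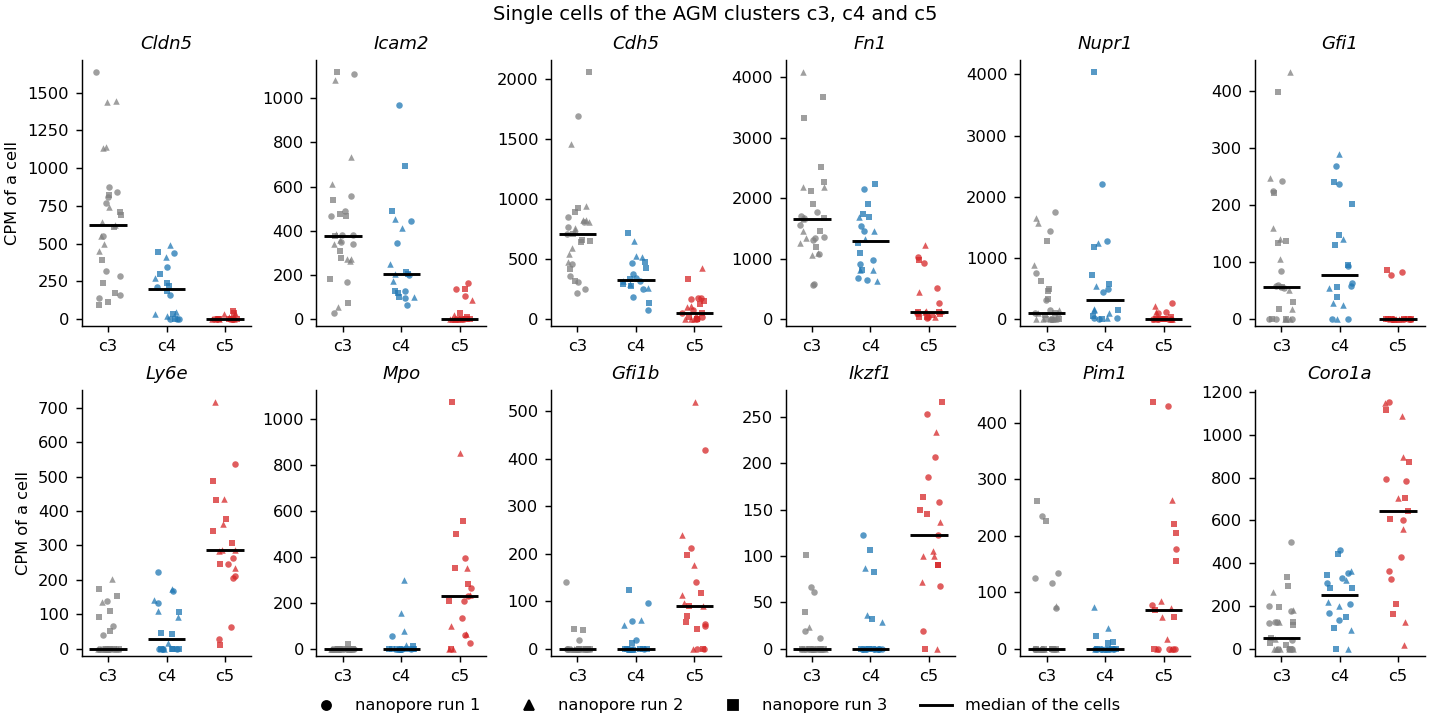
The CPM of each cell of c3, c4 and c5 is shown for 12 genes, with the marker shape giving the nanopore run and the bar the median of the cells. Cldn5, Icam2, Fn1, Nupr1 and Gfi1 drop between c4 and c5, while Ly6e, Mpo, Gfi1b, Ikzf1, Pim1 and Coro1a have most of their high cells in c5.

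Among hemogenic and blood transcription factors, where 25 of 28 were measured, 3 were called higher and 3 lower, and the median was -0.33. The clearest exchange was that of a pair of related zinc-finger repressors. Gfi1 was at 115 CPM (97.9 to 134) in c4 and 11.9 (7.07 to 18.8) in c5, and was found in 17 of 20 and 3 of 21 cells. Gfi1b was at 20.9 CPM (14 to 30) in c4 and 123 (106 to 142) in c5, and was found in 7 of 20 and 17 of 21 cells. In c4, 6 cells held counts of both genes, 11 of Gfi1 alone, 1 of Gfi1b alone and 2 of neither. In c5 no cell held both, 3 held Gfi1 alone, 17 Gfi1b alone and 1 neither. The early cluster c3 lay on the side of c4, with 103 CPM of Gfi1 and 7.74 of Gfi1b.

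The proteins GFI1 and GFI1B bind sites with the core AAATCA, and are known to bind control regions of their own and each other's genes. The sequences of their promoters are shown because the levels of these genes were exchanged. They cover 250 bases before and 50 bases after the start, on the minus strand of GRCm38.p6 as annotated in RefSeq, with matches to the core on either strand in capitals. For Gfi1, which has 2 entries in the table, the first was used. The window of Gfi1b is chr2:28621933-28622232 and that of Gfi1 chr5:107725756-107726055.
Gfi1b: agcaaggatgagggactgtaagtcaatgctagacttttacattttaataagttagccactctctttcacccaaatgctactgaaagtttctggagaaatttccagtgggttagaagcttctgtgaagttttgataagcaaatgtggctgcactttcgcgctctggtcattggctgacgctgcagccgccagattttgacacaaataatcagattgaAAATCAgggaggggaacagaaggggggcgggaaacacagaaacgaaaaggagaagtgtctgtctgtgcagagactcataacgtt
Gfi1: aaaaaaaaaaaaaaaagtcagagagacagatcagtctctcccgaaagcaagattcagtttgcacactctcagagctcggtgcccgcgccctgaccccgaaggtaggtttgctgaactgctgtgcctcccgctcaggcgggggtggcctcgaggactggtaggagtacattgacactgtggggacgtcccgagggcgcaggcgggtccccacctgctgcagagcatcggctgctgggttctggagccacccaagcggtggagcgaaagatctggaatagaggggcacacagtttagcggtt
The Gfi1b window held 1 match, and the Gfi1 window none. The core was held by 14.3% of all 27025 promoters in the RefSeq table, and by 7.39% of the 2342 promoters found for measured genes by 1 of the 26 found for genes called higher and by none of the 73 found for genes called lower. The core of ETS factors, CCGGAA, was in 34.0% of the measured promoters, in 5 of 26 called higher and in 16 of 73 called lower. The RUNX core TGTGGT was in 3 and 8 of these, against 11.5% of measured promoters. The GATA core AGATAA was in 2 and 4 of them, against 5.72%. These counts describe letters in 1 short window, both strands were read, and none of these cores contains another.

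Runx1, whose protein EHT depends on, was higher in c4 than on either side when summed over all cells. Its 155 counts in c4 were spread unevenly, with 23, 33 and 99 in runs 1, 2 and 3, of which run 3 was the deepest, and 1 cell held 25.8% of them. The Runx1 level was 44.9 CPM in c3 (74.9 on the shared plate), 111 (94.6 to 130.5) in c4 and 33.8 (25.2 to 44.4) in c5, with counts in 15 of 20 c4 cells and 11 of 21 c5 cells. Ets1, an ETS factor of endothelium, was at 59.0 and 7.95 CPM, and lost its call without the highest cells. The genes called higher, besides Gfi1b, were Ikzf1, the Ikaros factor of lymphoid development, at 27.3 CPM in 7 c4 cells and 133 in 19 c5 cells, and the ETS factor gene Elf1, at 6.47 and 53.0 CPM, which also lost its call in that way. For Ikzf1, 10 c5 cells were above the highest c4 cell, which was at 123 CPM. Most other factors of early blood did not differ by the call. Spi1 was at 254 and 201 CPM, Myb at 149.6 and 209, Lyl1 at 196 and 167, Lmo2 at 92.8 and 177, Fli1 at 92.1 and 105, Gata2 at 97.8 and 62.3 and Meis1 at 155 and 147. The short list of HE-selective genes, 5 of 8 measured, had 3 calls, all lower: Runx1 and Gfi1 again, and Hapln1, which links hyaluronan to the matrix, at 79.1 and 7.29 CPM in 16 and 3 cells.

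Counts of the endothelial gene Cdh5 and the myeloid gene Mpo were often found in the same c5 cell. Of the 18 c5 cells with Mpo counts, 13 also held Cdh5 counts. Of the c5 cells without Mpo counts, 2 held Cdh5 counts and 1 did not. In c4 all 6 Mpo cells held Cdh5 counts, but so did the 14 cells without Mpo counts, so no other outcome was possible. Whether both genes shared cells more often than their separate frequencies would give was not tested. A cell without counts of a gene may still express it at this depth.

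Outside these lists, the genes named here are those whose smallest difference over the 3 runs was largest. Higher in c5 were Tuba4a, an alpha-tubulin gene, at 8.82 and 139 CPM, the kinase gene Pim1, which acts downstream of cytokine receptors, at 6.47 and 123, the phosphatase gene Ptpn7 at 15.1 and 107, Kri1 at 18.7 and 90.1 and Cmtm7 at 53.9 and 266. Cmtm7 was found in 12 of 20 c4 cells and in every c5 cell. Tubulin genes are close copies of each other, so that the reads of Tuba4a may be shared among them. Lower in c5 were Tnfaip2, at 83.4 CPM in c4 and without a count in c5, at least 42.0-fold lower taking 3 counts over the cluster as the floor, and Crip2 at 329 and 14.6. The stress-induced Nupr1 was at 699 and 36.4 CPM, found in 18 and 7 cells, with 1 c4 cell at 4033 CPM. Cyp26b1, which breaks down retinoic acid, was at 124 and 9.27 CPM, Smtnl2 at 96.4 and 5.96, S100a16 at 130.2 and 7.29, and Esyt1 at 57.5 and 7.95. Myzap had 94.9 CPM in c4 and less than 1 in c5, from 1 count.

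Dlk1 was 1 of 3 genes called higher that had no count in c4. This membrane protein of the Notch ligand family, encoded by an imprinted gene, was without a count in all 20 c4 cells and at 172 CPM (151 to 194) in c5, at least 79.5-fold higher against a floor of 3 counts over the cluster, with counts in 15 of 21 cells. Its lowest, median and highest c5 cells were 0, 72.8 and 499 CPM, and its levels in runs 1, 2 and 3 were 161, 79.9 and 233 CPM. Dlk1 stands in the list of mesenchyme markers as well, and was the one measured member of its 12. Pdgfra, Col1a1, Col1a2, Col3a1, Twist1 and Prrx1 were at 0 in both clusters.

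The imprinted and fetal growth genes otherwise lay lower in c5. Of 17 listed 10 were measured, 8 with a log2 ratio below 0. H19, a long non-coding RNA, was called, at 4043 CPM (3938 to 4150.2) in c4 and 1257 (1201 to 1315) in c5, and 14 of 21 c5 cells were below every c4 cell. Its neighbour Igf2, a growth factor gene, was the most abundant member, at 10871 and 5257 CPM. Igf2 was not called, as its log2 ratio was -0.35 in run 1, -1.14 in run 2 and -1.63 in run 3. Cdkn1c, an inhibitor of cyclin-dependent kinases, was at 441 and 96.7 CPM and in 20 and 13 cells, and also missed the call through run 1, at -0.89. As a sum the list took 16588 CPM in c4, with cells from 11620.5 to 21948, and 7722 CPM in c5, with cells from 1404 to 18656, and 15 c5 cells lay below every c4 cell.

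**Figure D4:**
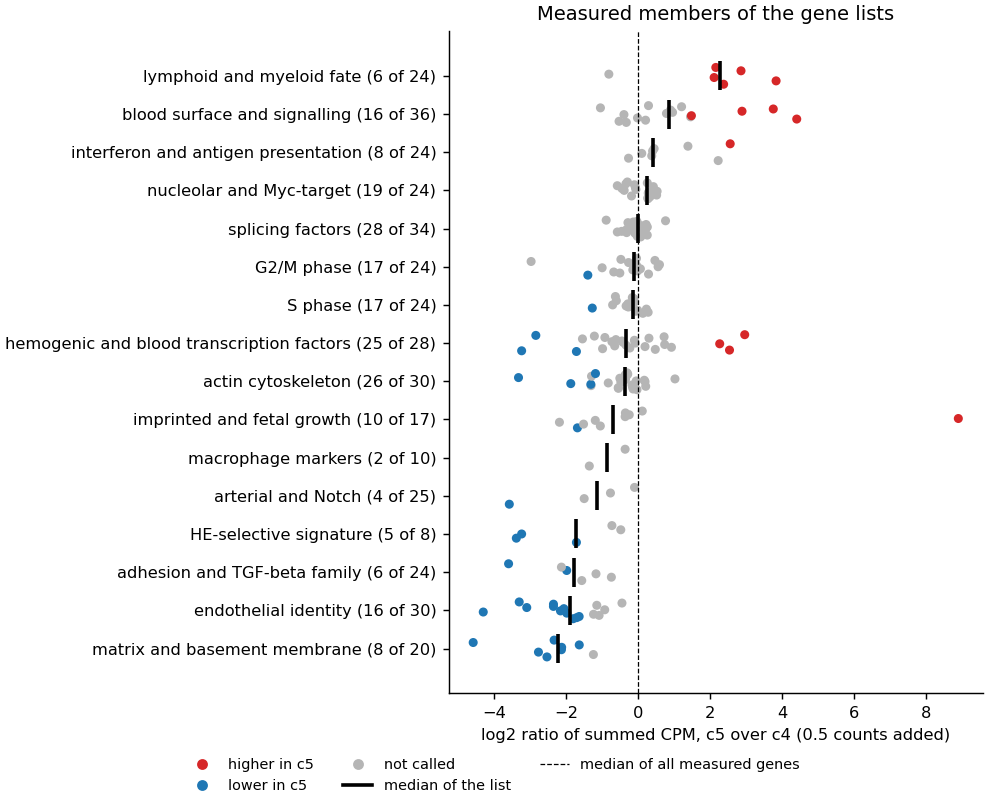
Each point is the log2 ratio of c5 over c4 of a measured member of a list, coloured by its call, and the bar is the median of the list, with the dashed line at the median of all measured genes (-0.01). Lists are ordered by their median, from matrix (-2.23) and endothelial genes (-1.89) to lymphoid and myeloid genes (2.27), and the splicing and cell cycle lists sit near 0.

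Lists of basic cell functions differed little in their medians. Their calls were few, as they were over all measured genes, where 1.18% were called higher and 2.80% lower. Of 17 measured S phase genes 1 was called, the ribonucleotide reductase gene Rrm1, lower at 146 and 60.3 CPM, and of 17 measured G2/M genes 1, the proliferation marker Mki67, lower at 96.4 and 36.4 CPM, a call that was lost without the highest cells. The medians were -0.14 and -0.11, and with median-ratio size factors -0.02 and 0.01. Top2a was at 344 and 421 CPM and Cdk1 at 428 and 424. Cenpf had 312 CPM in c4, of which a large part came from 1 cell at 5428 CPM, against a median cell of 19.9, and 39.4 in c5. Of 19 measured nucleolar and ribosome-making genes none was called, with a median of 0.26 and Ncl at 956 and 1158 CPM. Of 28 measured splicing factors none was called either, with a median of -0.01, which the size factors moved to 0.11.

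Of 24 interferon and antigen presentation genes 8 were measured, 7 of them with a log2 ratio above 0 and with a median of 0.43. Their sum was 1349 CPM in c4 and 2297 in c5, and 9 c4 cells lay below every c5 cell. The list had 1 call, Ly6e, at 52.8 CPM in c4 and 314 in c5. The cells of c5 ran from 11.4 to 717 CPM, and 16 were above every c4 cell. Ifitm1 was at 125 and 589 CPM without a call, since run 2 gave a log2 ratio of 0.98, and its reads may be shared with its close copies.

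Markers of other cell types were mostly absent. Erythroid markers had 1 of 16 measured, Car2, a carbonic anhydrase gene, called higher at 5.03 and 74.9 CPM in 3 and 18 cells, while Gata1, Klf1 and Alas2 were at 3.60 CPM or less in both clusters. Their sum ranged over the cells from 0 to 473 CPM in c4 and from 0 to 1053 in c5. Of 12 megakaryocyte markers 1 was measured, the integrin gene Itgb3, which was called lower at 352 and 53.7 CPM. Pf4, the platelet factor 4 gene, was at 0 in c4 and 29.1 CPM in 6 cells of c5, and Gp6, Treml1 and Mpig6b were at 0 in both. The sums of this list ranged from 0 to 684 CPM in c4 and from 0 to 469.7 in c5. Of 10 macrophage markers Apoe (1236 and 964 CPM) and Lyz2 (131 and 51.0) were measured and not called, and C1qa, C1qb, C1qc, Adgre1 and Mrc1 were at 0 in both. The macrophage sums ran from 513 to 2629.5 CPM in c4 and from 119 to 3021 in c5. None of the 12 visceral endoderm markers was measured.

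Isoforms were compared as fractions of a gene's summed counts. A gene entered if at least 2 of its transcripts were above 0, with at least 100 counts in each cluster and at least 20 in each cluster and run, and 1266 genes did. An isoform was called when its fraction differed by more than 0.1, that is 10 percentage points, over all cells and in the same direction within each run. This left 26 genes, or 2.05% of those tested in this way, with 34 called isoforms, of which 19 took a higher share in c5 and 15 a lower share. In 222 genes an isoform passed the limit over all cells. With the cell that held most counts of a gene left out of each cluster, 18 of the 34 isoforms were called. Of the 50 genes chosen for their known isoforms or roles, 31 had the counts, 5 passed over all cells and none was called. Runx1 kept Runx1-201 as its leading isoform, at 70.3% (62.5 to 77.4%) of 155 counts in c4 and 78.4% (64.7 to 88.7%) of 51 counts in c5, too few for a comparison. The 2 leading isoforms of Kit had equal estimates in both clusters and are not told apart by these reads.

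Apart from Ramp2, no gene with a called isoform was called by level. Of these, 3 genes are shown as examples in which an inner stretch of bases separates isoforms. They were chosen after their values were seen. The sequences are from GRCm38 with the annotation GENCODE M21, matched by transcript identifier. Bases that 1 partner isoform lacks are in capitals between 24 shared bases on each side. The partners are Atp13a2-203, Srrt-208 and, for each Macroh2a1 isoform, the other. Further isoforms of these genes were not compared, and differences at the transcript ends are not shown. For Atp13a2, a lysosomal cation pump, the bases of Atp13a2-201 that Atp13a2-203 lacks lie at chr4:141006679-141006752 on the plus strand. For Srrt, a partner of the cap-binding complex in RNA processing, Srrt-211 holds 12 more bases than Srrt-208 at chr5:137296308-137296319 on the minus strand. Macroh2a1, a histone variant, uses 1 exon or another, at chr13:56089758-56089857 in Macroh2a1-201 and at chr13:56088252-56088342 in Macroh2a1-202, both on the minus strand. All of these bases are coding.
Atp13a2-201: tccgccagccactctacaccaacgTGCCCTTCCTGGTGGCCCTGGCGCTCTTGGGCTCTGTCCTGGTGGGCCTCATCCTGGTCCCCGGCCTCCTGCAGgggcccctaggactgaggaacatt
Srrt-211: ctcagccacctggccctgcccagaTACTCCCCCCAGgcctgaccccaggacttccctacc
Macroh2a1-201: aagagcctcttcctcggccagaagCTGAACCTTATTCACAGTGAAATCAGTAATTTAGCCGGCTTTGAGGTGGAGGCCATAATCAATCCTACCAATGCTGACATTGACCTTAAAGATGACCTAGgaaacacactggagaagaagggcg
Macroh2a1-202: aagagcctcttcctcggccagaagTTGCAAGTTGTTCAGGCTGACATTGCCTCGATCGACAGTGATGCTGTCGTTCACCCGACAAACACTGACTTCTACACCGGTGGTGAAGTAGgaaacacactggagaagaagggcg

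Atp13a2-201 took 51.4% (43.5 to 59.7%, exact binomial) of 155 counts in c4 and 82.4% (77.7 to 86.7%) of 292 counts in c5. Its call held without the cell of most counts. By run its share was 56.7, 41.0 and 57.1% in c4 and 95, 77.7 and 81.5% in c5, a difference within each run that the call asked for. Atp13a2-203, which lacks those 74 bases, went from 28.8 to 10.2%, a call that did not hold without that cell, and neither did that of Srrt-211. Srrt-211 took 38.9% in c4 and 59.4% in c5, while Srrt-208, which lacks the 12 bases, stayed at 20.1 and 19.3% and the decay-prone Srrt-210 was at 26.1 and 11.2%. Macroh2a1-201 was at 44.8% of 365 counts in c4 and 71.0% of 653 in c5, and Macroh2a1-202 at 18.8 and 7.1%, the second without a call because run 1 had 14.5 and 14.1%. The remaining counts of Macroh2a1 were mostly of Macroh2a1-203, annotated with a retained intron, at 31.5 and 19.8%. The histone therefore did not only exchange 1 exon for the other. In c3 Atp13a2-201 was at 57.1%, Srrt-211 at 45.7% and Macroh2a1-201 at 37.6%, nearer to c4 than to c5.

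By class, all 4 called isoforms with a retained intron took a lower share in c5, and so did 3 of the 5 annotated to nonsense-mediated decay, while 16 of 22 called protein-coding isoforms took a higher share. Among all 485 retained-intron isoforms that made up 5% or more of a tested gene, 55.1% were lower. Of the 59 that passed the limit over all cells 55.9% were, against 48.8% and 46.4% over all classes. For decay-annotated isoforms these shares were 50.9% of 287 and 56.8% of 37, near the share of the calls. For protein-coding isoforms they were 47.9% of 2520 and 42.0% of 205. Protein-coding isoforms made up 65.9% of the isoforms at 5% or more and 64.7% of the called ones. In Plcg1, which encodes phospholipase C gamma, the retained-intron Plcg1-209 went from 67.1 to 40% and the coding Plcg1-203 from 20.4 to 52.0%. In the GTPase gene Drg1, Drg1-204 with a retained intron went from 32.9 to 11.8%, and Drg1-207, whose coding part is not defined, from 3.9 to 36%. Of these, the calls of Plcg1-209, Plcg1-203 and Drg1-204 did not hold without the cell of most counts. In c3 Plcg1-209 and Plcg1-203 were at 22.1 and 63.8%, and Drg1-204 and Drg1-207 at 15.8 and 27.6%. For these isoforms c3 lay nearer to c5 than to c4. They were named for their difference between c4 and c5, and only 8 of the 29 c3 cells came from the shared plate. Isoform shares of c3 on that plate alone were not computed. No path from c3 over c4 to c5 is therefore read from any isoform share given here. Over all genes, retained-intron transcripts took 5.97% of all counts in c4 and 5.78% in c5, with cells from 5.25 to 6.75% and from 4.89 to 7.18%, transcripts annotated to decay took 3.58 and 3.30%, and protein-coding transcripts 54.4 and 52.2%.

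Ramp2, the receptor partner that makes Calcrl a receptor of adrenomedullin, was the 1 gene called both by level and by isoform. Its level was 538 CPM in c4 and 121 in c5, and the coding Ramp2-204 took 87.2% of 749 counts in c4 and 47.1% of 182 in c5. Ramp2-203, annotated to decay, went from 8.5 to 44.0%. Its share was even over the runs of c4, at 8.7, 8.6 and 8.3%, and uneven over those of c5, at 41.5, 25 and 73.8%. The rule also named Med15 of the Mediator complex, whose Med15-211 went from 76.4 to 46.5%, the vesicle coat gene Sec24c, whose decay-annotated Sec24c-210 went from 30.4 to 5.9%, and Rbm3, a cold-induced RNA-binding protein, whose decay-annotated Rbm3-207 went from 41.2 to 26.2%. In Dnajc8 the coding Dnajc8-202 went from 20.4 to 45.2%, and in Thyn1 the coding Thyn1-203 from 76.8 to 93.3%. In c3 Dnajc8-202 (36.5%) and Thyn1-203 (90.1%) lay nearer to c5 than to c4. Ramp2-204 (89.3%), Sec24c-210 (33.5%) and Rbm3-207 (39.6%) lay nearer to c4 there, and Med15-211 (62.9%) lay between the clusters.

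These isoform differences have to be read against the spread between runs of 1 cluster. With equal counts of each gene drawn from every run, an isoform differed by more than 0.1 between c5 and c4 in 42.9 to 44.6% of the 1266 genes within a run. Between runs of c4 alone the share was 45.9 to 51.1%, and between runs of c5 alone 42.3 to 47.8%. The comparisons between the clusters are each within 1 run and those inside a cluster are each between 2 runs, so that the latter also hold what differs between runs, which was not measured apart.

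**Figure D5:**
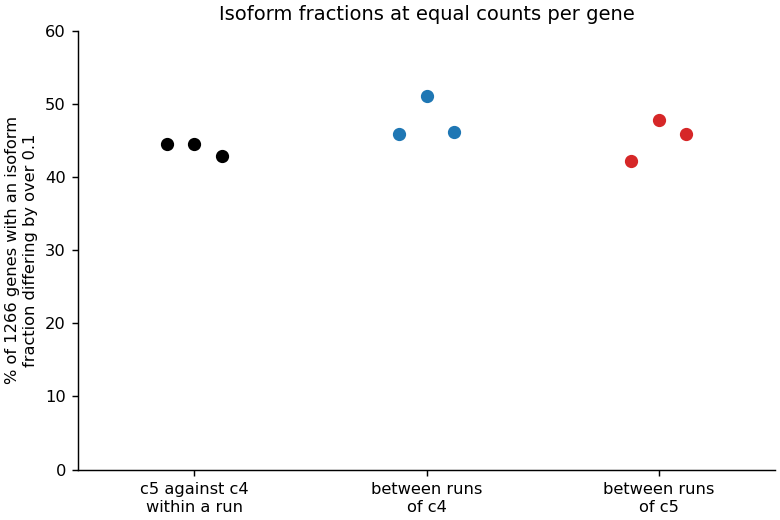
Each point is a pair of groups of cells at equal counts per gene, and the y axis gives the share of 1266 genes with an isoform fraction differing by over 0.1. The 3 comparisons of c5 with c4 lie at 42.9 to 44.6%, within the 42.3 to 51.1% found between runs of the same cluster.

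The evenness of isoform use was measured as the entropy of a gene's isoforms per cell, with 1 count added per isoform, and averaged over the cells with an estimate above 0. Over the 3353 genes that had one in 10 or more cells both of c4 and of c5 the median of c5 minus c4 was 0. Of the genes that differed, 51.3% were higher in c5, but 47.6% with no count added, and 45.0, 48.5 and 49.5% in runs 1, 2 and 3 alone. With every cell thinned to 33825 counts the median was 0.00266, over 2416 genes.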

How the data were processed

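Full-length cDNA of single sorted cells, made by a miniaturised Smart-seq2 protocol, was sequenced on a nanopore instrument. The authors basecalled and trimmed the reads, removed chimeric ones and mapped the rest to the transcripts of GENCODE by minimap2 2.26, after which NanoCount gave an abundance for each transcript. The first deposited table holds these estimated counts without normalization. Many are fractions, since a read that aligns to several transcripts is divided among them. The second deposited table holds TPM, which the authors obtained from the same counts by scaling each cell to a total of 1000000, without a length correction. Neither table contains the library-size filter or the DESeq2 scaling that they applied later.

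Groups followed the cluster in the labels, and cells were kept at 17595 counts or more (the median total over the series minus 1 scaled MAD, as in the methods), which left out 2 cells of c4 with 130 and 152 counts. Counts were summed over transcripts and cells, with 0.5 counts added for log2 ratios. Genes were named as members of 20 lists, as the 12 genes in each direction with the largest smallest difference over runs among named genes found in 50% or more of the cells of the higher cluster, and as the 10 genes leading the isoform calls in the same way. Of the genes these rules cover, some are not reported here. A cell was counted as holding a gene at 1 count or more, with a tolerance of 1e-06, since many estimates of 1 are deposited as slightly less. The clusters, lists, tests and named genes were chosen with earlier results of these data known. Poisson, conditional binomial (for ratios) and exact binomial intervals are at 95% and took rounded counts. Closely similar genes, such as those of ribosomal proteins, tubulins, actins and Ifitm proteins, and overlapping genes can share reads, and their values are uncertain. The calculations were checked on simulated counts. The alternatives covered the weight of cells, the cDNA plate, filters, normalization, single high cells, runs and depth, and the values of c3 on the shared plate were added after the data were seen. The scripts ran under Python 3.11.15 with pandas 2.3.3, numpy 2.4.6, matplotlib 3.10.9 and scipy 1.17.1.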

Additional observations from a re-analysis of the deposited data

How the results depend on the processing

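No paired analysis was possible because no embryo is named and each cluster counts as 1 sample. The numbers of genes called higher and lower, 45 and 107, depended most on the level asked for and on how many runs had to agree. Without a filter beyond 1 count they were 278 and 434, and with 200 CPM they were 10 and 23. With only 2 runs to agree, they were 120 and 217 without run 1, 120 and 212 without run 2, and 98 and 221 without run 3. On the shared cDNA plate alone they were 45 and 109, with cells weighted equally 49 and 111, with every cell thinned to 1 total 46 and 120, and with the highest cell of each gene left out 42 and 118, of which 26 and 78 were among the genes called at first. Of the 61 named genes called, 60 kept the call on the plate, 58 with equal weights and 55 without the highest cell, where Esam, Tek, Hey1, Ets1, Elf1 and Mki67 lost it. The 26 isoform calls became 6 with at least 200 counts and 3 with a limit of 0.2. Of the 34 called isoforms, 18 were called without the cell of most counts of the gene, 26 from summed TPM, 31 from estimates of at least 1 count and 32 on the plate. The limits of 200 counts and 0.2 ask for more counts or larger differences by construction, while the other settings kept the limits of the calls. The median entropy difference was 0.00266 in thinned cells and -0.00218 in run 1 alone, and the cause was not tested. None of the 152 called genes changed direction over all cells under the 14 alternatives, and neither did the 34 called isoforms under 4. This was in part fixed in advance, since the calls had asked for the same direction in every run. Changing the level filter also leaves a ratio as it was. The G2/M and splicing medians, near 0, changed sign with median-ratio size factors, to 0.01 and 0.11. Depth left 19 of the 50 genes chosen for isoforms without the counts asked for.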

Other observations

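Several genes called lower code for vascular and matrix proteins outside the lists: the thrombin receptor gene F2r at 341 and 78.8 CPM, the semaphorin receptor gene Plxnd1 at 175 and 55.0, the collagen chaperone gene Serpinh1 at 132 and 31.1, and Fstl1 at 220.06 and 36.4. They were picked after their values were seen. Adgrl4, a receptor gene known from endothelium, went the other way, at 10.1 CPM in 3 c4 cells and 50.3 in 14 c5 cells, and lost its call without its highest cell. Fos was at 3.60 CPM in 1 c4 cell and 88.1 in 9 c5 cells. Actc1, a cardiac actin gene, was at 98.5 CPM in c4 from 4 cells and at 0 in c5, and also lost its call without its highest cell.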
